A study of Mus musculus with 6 samples.

Results

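The genes described here are 10 inflammatory mediators, the cytokine genes Tnf, Ltb, Il1b, Il18 and Il6 and the chemokine genes Ccl3, Ccl4, Ccl5, Ccl6 and Ccl9. They were taken by symbol from a table of 13642 genes measured in sorted plasma cells of mouse bone marrow, and all 10 were present in it. The selection was by name, with earlier results of these data known. Values are FPKM as deposited, that is, sequenced fragments scaled by gene length and by library size, so levels can be compared between genes, and are given in the order of replicates 1 to 3 of a group. Of the 10 genes, 9 had a mean of at least 1 FPKM over the 6 libraries and were tested. Il6 was below that mean and is described by its values. For Tnf, Il1b, Ccl3, Ccl4, Ccl5 and Ccl9 the mean passed only through old libraries, so the test of these genes met a difference that the filter itself had helped to choose.

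The young group was 3 libraries from female C57BL/6J mice of 2 to 3 months, supplied by the Jackson Laboratory or a UCLA animal facility. The old group was 3 libraries from male C57BL/6J mice of 17 to 19 months from the National Institute on Aging colony. No transgene, deletion or treatment is named for either group. Age, sex and supplier changed together and cannot be told apart. The cells were sorted as CD138 high and as negative for B220, IgD, T cell receptors, CD11b and Gr-1, a gate meant to leave out T cells and mature myeloid cells. The design text speaks of independent groups of mice and gives no number of animals per library. The p-values here reflect only how far the 3 libraries of a group lay apart, in part perhaps for technical reasons. That spread was taken from the gene itself and, by moderation, from other genes of like level.

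Plasma cells are the antibody factories of the immune system, and their long-lived form survives in marrow niches beside myeloid cells. TNF, IL-1 and IL-6 are the classic alarm cytokines, produced mainly by monocytes, macrophages and granulocytes after danger signals and able to push blood formation towards myeloid cells. CC chemokines such as CCL3 to CCL9 attract leukocytes through G protein-coupled receptors, among them CCR1, and are abundant products of myeloid cells, basophils and, for CCL5, NK and T cells. The study's title concerns myeloid skewing of ageing marrow and plasma cell accumulation, and the comparison asks which of these mediator transcripts differ between old and young plasma cell samples.

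The libraries were not alike apart from age. From the steps of the low values, about 22.6 to 25.5 M fragments lay behind the young libraries and 27.1 to 28.3 M behind the old ones. Genes above 0 numbered 8934 to 10664 in young and 11310 to 12049 in old libraries. Of tested genes with a mean of 1 to 5 FPKM, 29.1% to 56.0% lay under 0.1 FPKM in a young library and 12.2% to 23.7% in an old one. A value of 0 is given here as listed at 0, because 4 to 56 of the 2835 genes with a mean of at least 20 FPKM were also at 0 in a library, 56 of them in young replicate 3.

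The plasma cell identity of the samples was clear in their markers, and most granulocyte markers were highest in old replicates 2 and 3. Jchain, the antibody joining chain, was at 16938, 19359 and 19793 FPKM in the young and 19584, 18882 and 7514 FPKM in the old libraries. Over the 10 plasma cell markers the summed level was 20136 to 23384 FPKM in young libraries and 9111 to 23179 in old ones, lowest in old replicate 3. That library had the highest value of 6 of 10 eosinophil, basophil and mast cell markers, 8 of 14 monocyte and macrophage markers and 7 of 10 NK cell markers. Mcpt8, a protease gene of basophils, was at 12.0, 2.23 and 5.48 FPKM for young replicates 1 to 3 and 27.6, 9.55 and 265 for old replicates 1 to 3. Elane, the elastase gene of immature neutrophils, was at 10.2, 0.0475 and 0.0536 against 19.7, 19.2 and 220. Old replicate 2 held the highest value of 8 of 15 neutrophil markers, among them S100a9, an alarmin subunit of mature neutrophils, at 749 FPKM, and Camp, a granule peptide gene, at 88.1.

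Of the 10 mediator genes, the highest value fell in old replicate 3 for 6, in old replicate 2 for 2, and in a young library for Ltb and Il18. Those at 1 FPKM or more numbered 3, 2 and 3 of the 10 in young replicates 1 to 3 and 4, 6 and 7 in old replicates 1 to 3. For 6 of the 10, namely Tnf, Il6, Ccl3, Ccl4, Ccl5 and Ccl9, every young library was under 0.1 FPKM while an old library reached 1 FPKM or more, a pattern that 9.02% of all 13642 genes showed. The opposite pattern was shown by 0 of the 10 and by 1.47% of all genes.

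**Figure D1:**
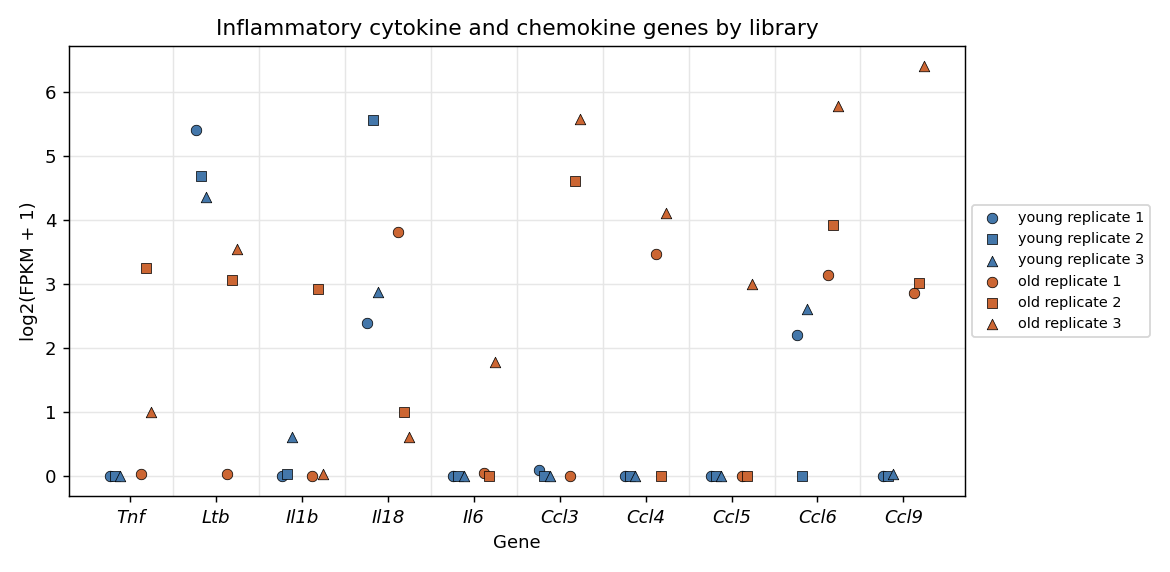
Level of each of the 10 genes as log2(FPKM + 1), with 1 point per library, young in blue and old in orange. Tnf, Il6, Ccl3, Ccl4, Ccl5 and Ccl9 lie at or near 0 in all 3 young libraries, while Ltb lies higher in every young library than in any old one.

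None of the tested genes was called. The test was limma on log2(FPKM + 1) over 10687 genes with a mean of at least 1 FPKM, with a call at a Benjamini-Hochberg adjusted p under 0.05, and it called 0 of the 9, as it called 0% of all genes tested. At an unadjusted p under 0.05, 4 of the 9 (Ccl9, Ccl6, Ccl3 and Ccl4) were higher in old libraries, against 4.66% of all genes, and 1 (Ltb) was lower, against 1.25%. The groups did not overlap, with every old library higher, for 3 of the 9 (Tnf, Ccl6 and Ccl9) against 8.78% of all genes, and with every old library lower for 1, Ltb, against 3.42%. The median log2 change of the 9 genes was 1.42, beside 0.23 for all genes tested (-0.01 for all genes after quantile normalization), and 7 of the 9 changes were above 0. Since most of these genes passed the filter through old libraries alone, their counts and median describe them and support no direction.

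Tnf and Ltb are neighbours in the MHC region of chromosome 17, and the signs of their group differences, neither of which was called, were opposite. Tnf lies at 35199381 to 35202007 on the minus strand and Ltb at 35194439 to 35196320 on the plus strand (GRCm38, GENCODE M21), both protein coding, with 3.06 kb between them. The genes point towards each other, so their start sites lie at the outer ends of the pair, with both genes between them. The 150 bases before the earliest annotated start of each are printed, 5′ to 3′ on the gene's strand, from RefSeq on GRCm38.p6. Capitals mark a TATA box (TATAAA) in Tnf and a match to the NF-kB consensus in Ltb. The Tnf stretch is chr17:35202008-35202157, minus strand, and the Ltb stretch is chr17:35194289-35194438, plus strand.
Tnf: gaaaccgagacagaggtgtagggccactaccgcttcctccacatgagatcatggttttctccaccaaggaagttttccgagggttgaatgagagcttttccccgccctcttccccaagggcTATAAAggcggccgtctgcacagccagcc
Ltb: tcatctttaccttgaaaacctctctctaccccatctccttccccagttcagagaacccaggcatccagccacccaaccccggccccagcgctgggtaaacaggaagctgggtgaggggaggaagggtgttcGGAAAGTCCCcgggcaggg

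Tnf, the founding alarm cytokine of its family, was listed at 0 FPKM in all 3 young libraries and was at 0.0224, 8.46 and 0.9902 FPKM in old replicates 1 to 3. The groups did not overlap, yet the value of old replicate 1 corresponds to about 1 fragment, and old replicate 2, at about 392 fragments, held 89.3% of the summed level. Its log2 change was 1.42 ± 0.94 (SE), with a limma adjusted p = 0.851. It was 0.51 without old replicate 2, so that library set most of its size. In old replicate 2, Tnf stood beside the highest S100a9 and Camp of any library, while S100a8 was highest in young replicate 2. With the myeloid level as a covariate the Tnf change was 0.23 ± 1.07 (SE). That level is the mean log2(FPKM + 1) of 29 monocyte, macrophage and neutrophil markers, and was 2.84, 2.83 and 2.53 in young and 2.60, 4.41 and 4.44 in old libraries.

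Ltb encodes lymphotoxin beta, which anchors lymphotoxin alpha at the surface of lymphocytes and signals through LTBR to organise lymphoid tissue. It was the most evenly expressed of the 10 genes in young libraries, at 41.5, 24.8 and 19.6 FPKM, and was at 0.0234, 7.38 and 10.7 FPKM in old ones. Every old library was lower than every young one, and old replicate 1 was at the level of about 1 fragment. The means were 28.6 ± 11.4 and 6.03 ± 5.45 FPKM (SD, n = 3 each), a ratio of young to old of 4.75, and the log2 change was -2.61 ± 0.91 (SE) with a limma adjusted p = 0.746. In old replicate 1, the lowest for Ltb, Jchain was at 19584 FPKM and the myeloid level was 2.60, and the part of other cells in the Ltb values was not tested. With the myeloid level as a covariate the Ltb change was -4.58 ± 0.83 (SE), and without old replicate 1 it was -1.51. Per 100 FPKM of Jchain the ranges overlapped, with Ltb at 0.245, 0.128 and 0.0989 FPKM for young replicates 1 to 3 and 0.000119, 0.0391 and 0.142 for old replicates 1 to 3. Lta, the partner of Ltb, was listed at 0 in all 3 young libraries and old replicate 1, and was at 0.0274 and 0.757 FPKM in old replicates 2 and 3.

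Il1b and Il18 encode cytokines of the IL-1 family that are made as precursors and cut by caspase-1 in inflammasomes. Il1b (chromosome 2, 129364570 to 129371139, minus strand) was at 0, 0.0217 and 0.514 FPKM in the young and 0, 6.59 and 0.02005 FPKM in the old libraries. Old replicate 2 held 92.2% of its summed level, and the other 5 libraries were under 1 FPKM, so the groups overlapped. Its log2 change was 0.77 ± 0.95 (SE), with a limma adjusted p = 0.892, and it was -0.20 without old replicate 2 and -0.0021 with the myeloid level as a covariate. S100a9, highest in the same library, was also at 319 and 324 FPKM in young replicates 2 and 3, where Il1b was low. Per 100 FPKM of S100a9, Il1b was 0, 0.00680 and 0.159 FPKM in the young and 0, 0.879 and 0.0498 FPKM in the old libraries.

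Il18 (chromosome 9, 50554827 to 50581840, plus strand) was highest in a young library. It was at 4.22, 46.0 and 6.31 FPKM for young replicates 1 to 3 and 12.96, 0.995 and 0.527 for old replicates 1 to 3. The means were 18.8 ± 23.5 and 4.83 ± 7.05 FPKM (SD, n = 3 each). Young replicate 2 alone held 64.8% of the summed level, and old replicate 1 lay above young replicates 1 and 3, so the groups overlapped. The fitted log2 change was -1.80 ± 1.13 (SE), with a limma adjusted p = 0.848, and was -0.82 without young replicate 2. The lowest values were in old replicates 2 and 3, the libraries with the highest myeloid level, and with that level as a covariate the change was -0.15 ± 1.41 (SE).

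Il6 (chromosome 5, 30013114 to 30019981, plus strand), the gene of a cytokine that also supports plasma cell survival, was nearly undetected. It was listed at 0 in all 3 young libraries and old replicate 2, and was at 0.0293 FPKM, about 2 fragments, in old replicate 1. Old replicate 3 alone was above 1 FPKM, at 2.44 FPKM or about 164 fragments. With no filter on low values its log2 change was 0.61 ± 0.49 (SE), with a limma adjusted p = 0.761. The groups overlapped at 0.

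The 5 chemokine genes lie in 1 cluster on chromosome 11, between 83525778 and 83664683 (GRCm38), a span of 139 kb. In order along the chromosome these are Ccl5 (83525778 to 83530518), Ccl9 (83572919 to 83578636), Ccl6 (83587882 to 83593087), Ccl3 (83647844 to 83649355) and Ccl4 (83662584 to 83664683), of which Ccl4 alone is on the plus strand. Of the nearest genes of the table on either side, Taf15, an RNA-binding protein gene, was above 17 FPKM in every library, and Wfdc17, a gene of macrophages, was listed at 0 in 5 libraries and was at 8.58 FPKM in old replicate 2. The 150 bases before the start sites of Ccl9 and Ccl6 are printed because these neighbours were the chemokine genes whose groups did not overlap. The Ccl9 stretch is chr11:83578637-83578786 and the Ccl6 stretch is chr11:83593088-83593237, both on the minus strand and printed 5′ to 3′ (RefSeq, GRCm38.p6). Capitals mark the TATA box letters TATAAA on either strand and a match to the NF-kB consensus.
Ccl9: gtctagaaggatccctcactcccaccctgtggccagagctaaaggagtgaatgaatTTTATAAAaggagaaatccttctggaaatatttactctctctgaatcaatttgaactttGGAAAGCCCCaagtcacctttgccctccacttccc
Ccl6: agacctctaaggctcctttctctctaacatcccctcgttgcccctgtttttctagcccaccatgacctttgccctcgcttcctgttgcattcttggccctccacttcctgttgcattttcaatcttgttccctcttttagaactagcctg

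Ccl9 had the largest log2 change of the 9 tested genes with all 6 libraries and no covariate, but not without old replicate 1, where that of Ccl3 was larger (5.06 against 4.70), nor without old replicate 3 or with the myeloid level as a covariate, where that of Ltb was larger in size (-3.27 against 2.93, and -4.58 against 2.99). It encodes a chemokine of the CCR1 group made by macrophages and other myeloid cells. It was listed at 0 in young replicates 1 and 2 and was at 0.0150 FPKM, about 1 fragment, in young replicate 3. Old libraries were at 6.26, 7.06 and 83.4 FPKM, or about 516, 609 and 7012 fragments, so the groups were far apart and old replicate 3 alone held 86.2% of the sum. The fitted log2 change was 4.08 ± 1.06 (SE), with a limma adjusted p = 0.680. It was 2.93 ± 0.56 (SE) without old replicate 3. With the myeloid level as a covariate it was 2.99 ± 1.42 (SE), and with the basophil level, the mean over 10 eosinophil, basophil and mast cell markers, it was 2.85 ± 0.92 (SE).

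Ccl9 was also read in old replicate 1, the old library with the lowest myeloid level and the lowest basophil level. Its myeloid level of 2.60 and basophil level of 2.27 were within the young ranges of 2.53 to 2.84 and 2.19 to 2.63, while its Ccl9 was at 6.26 FPKM. Single markers were not all within the young range there, since Lyz2, the lysozyme gene of monocytes and granulocytes, was at 179 FPKM against 26.7, 97.1 and 99.1 in young libraries, and Mcpt8 and Elane were above their young values as well. At 27.6 and 19.7 FPKM, Mcpt8 and Elane were also above the 9.55 and 19.2 of old replicate 2. Per 100 FPKM of Mcpt8, Ccl9 was 0, 0 and 0.273 FPKM in the young and 22.7, 73.9 and 31.4 FPKM in the old libraries. Per 100 FPKM of Lyz2 it was 0, 0 and 0.0151 against 3.49, 3.60 and 16.2, again without overlap. Per 100 FPKM of Elane it was 0, 0 and 27.9 against 31.7, 36.7 and 37.9, so that the old libraries were alike on this scale and young replicate 3, with about 1 fragment of Ccl9 and Elane at 0.0536 FPKM, lay near them.

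Ccl6, the adjacent chemokine gene of myeloid cells, was the chemokine gene seen most widely in the young libraries. Its level was 3.62, 0 and 5.10 FPKM in the young and 7.76, 14.1 and 53.8 FPKM in the old libraries. All old libraries lay above all young ones, though old replicate 1 exceeded young replicate 3 by less than 3 FPKM. On the log2 scale the change was 2.67 ± 0.97 (SE), with a limma adjusted p = 0.758. It was 1.92 without old replicate 3 and 1.80 ± 1.34 (SE) with the myeloid level as a covariate. Per 100 FPKM of Lyz2, Ccl6 was 13.5, 0 and 5.15 FPKM in the young and 4.33, 7.18 and 10.4 FPKM in the old libraries, so that the groups overlapped on this scale, unlike Ccl9.

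Ccl3 and Ccl4, the genes of macrophage inflammatory proteins that attract monocytes and lymphocytes, were each above 1 FPKM in 2 old libraries, though not the same 2. Ccl3 was at 0.0607 FPKM, about 1 fragment, in young replicate 1 and listed at 0 in young replicates 2 and 3. It was listed at 0 in old replicate 1 too, and was at 23.4 and 46.7 FPKM in old replicates 2 and 3. Its groups overlapped, and the log2 change was 3.37 ± 1.34 (SE) with a limma adjusted p = 0.829. It was 5.06 without old replicate 1 and 2.28 without old replicate 3. With the myeloid level as a covariate the Ccl3 change was 0.40 ± 1.12 (SE), and the libraries with Ccl3 above 1 FPKM were the 2 with the highest myeloid level.

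Ccl4 was listed at 0 in all 3 young libraries and in old replicate 2, and was at 10.02 and 16.2 FPKM in old replicates 1 and 3. The 0 of old replicate 2 allows at most 0.161 FPKM, the worth of 3 fragments at its approximate depth, counting error only. On the log2 scale the change was 2.52 ± 1.11 (SE), with a limma adjusted p = 0.839, and the groups overlapped at 0. With the myeloid level as a covariate it was 3.31, larger than without it. Ccl4 was thus listed at 0 in old replicate 2, where Ccl3 was at 23.4 FPKM, and Ccl3 was listed at 0 in old replicate 1, where Ccl4 was at 10.02 FPKM.

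Ccl5, a chemokine gene typical of NK cells and effector T cells, was listed above 0 in 1 library. It was listed at 0 in all 3 young libraries and in old replicates 1 and 2, and was at 7.02 FPKM, about 186 fragments, in old replicate 3. The log2 change was 1.00 ± 0.95 (SE), with a limma adjusted p = 0.854, and it was 0 without old replicate 3. In old replicate 3 were also the highest Ncr1, an NK cell receptor gene, at 12.3 FPKM against at most 0.581 elsewhere, and the highest Nkg7, a cytotoxic granule gene, at 16.5 against at most 5.38. Of the 10 NK cell markers 7 were highest there. Prf1 and Il2rb were highest in old replicate 2, at 30.2 and 22.4 FPKM, and Gzma in young replicate 2, at 32.0. The summed level of the 10 NK cell markers was 0.00646 to 36.6 FPKM in young and 26.8 to 75.1 in old libraries, and in old replicate 3 none of the 10 was at 0. The 10 T cell markers summed to 10.8 to 23.6 FPKM in young and 12.8 to 19.1 in old libraries, highest among the old in old replicate 3, and Cd4 was the largest term in young replicate 1 at 23.4. In old replicate 3, Thy1 was at 3.44 FPKM against at most 0.0527 elsewhere, and 5 of the 10 were at 0, among them Cd3d and Cd8a. Lck, a kinase gene of T and NK cells, was at 5.22 FPKM there and Cd3e at 0.934. Both were higher in a library with Ccl5 at 0, Lck at 5.70 in old replicate 1 and Cd3e at 2.73 in old replicate 2. The part of NK or T cells in the Ccl5 value was not tested.

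**Figure D2:**
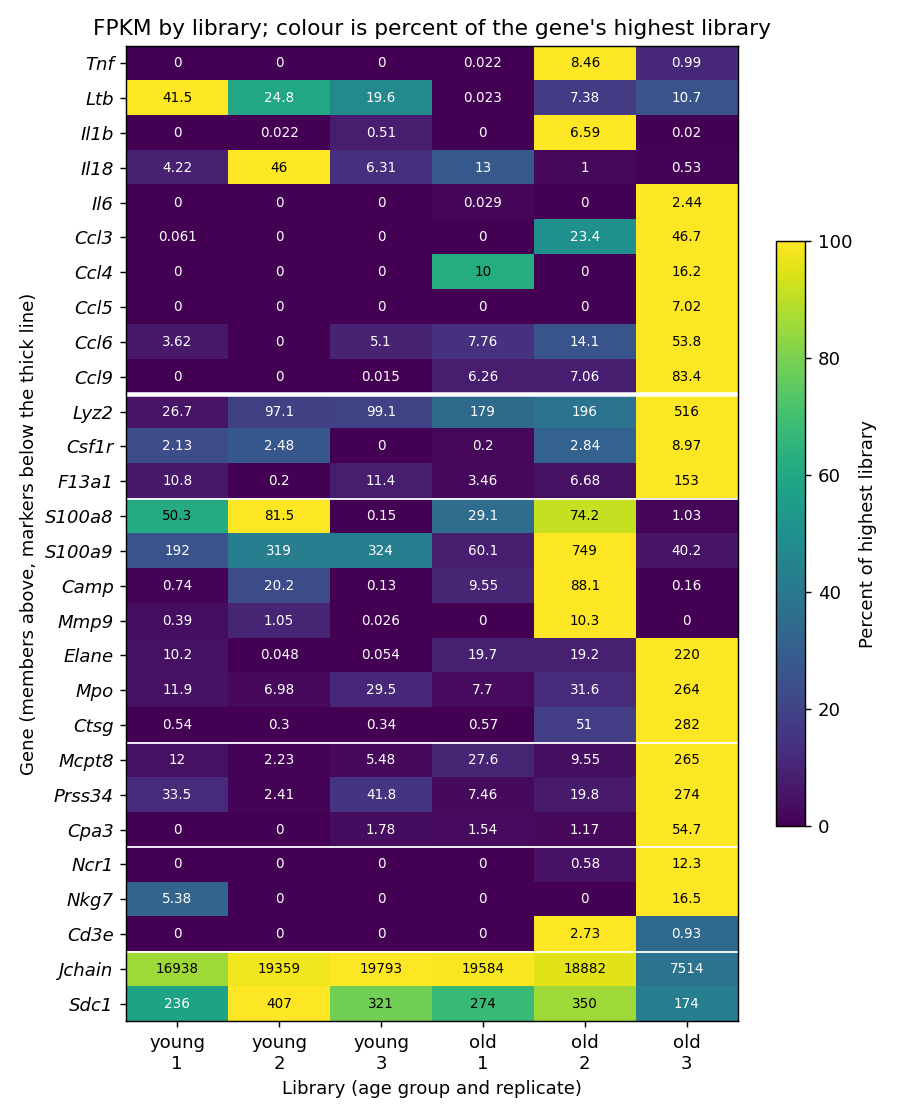
FPKM of the 10 genes (above the thick line) and of marker genes of monocytes, neutrophils, basophils, NK and T cells and plasma cells, by library. Numbers are FPKM and colour is the percent of the gene's highest library. Tnf and Il1b share their highest library, old replicate 2, with S100a9, Camp and Mmp9, though not with S100a8, highest in young replicate 2. Il6, Ccl3, Ccl4, Ccl5, Ccl6 and Ccl9 share old replicate 3 with Elane, Mcpt8 and Ncr1.

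The library with the highest value differed among the 10 genes. Tnf and Il1b were highest in old replicate 2, where the neutrophil genes S100a9, Camp and Mmp9 were highest, at 749, 88.1 and 10.3 FPKM. Il6 and the 5 chemokine genes were highest in old replicate 3. There the neutrophil genes Elane, Mpo and Ctsg were at 220, 264 and 282 FPKM and the basophil and mast cell genes Mcpt8, Prss34 and Cpa3 at 265, 274 and 54.7. Cxcr2 and Csf3r, receptor genes of the neutrophil list, were also highest in old replicate 3. They were at 4.89 and 13.5 FPKM there and at 2.19 and 8.89 in old replicate 2. Ltb was highest in young replicate 1 and Il18 in young replicate 2. The summed level of the 9 eosinophil, basophil and mast cell markers other than Prg2, which was high in every library, was 25.0 to 77.5 FPKM in young libraries, 43.0 and 47.1 in old replicates 1 and 2, and 715 in old replicate 3. Neutrophil markers summed to 369 to 576 FPKM in young and 270 to 1334 in old libraries, and monocyte and macrophage markers other than Ctss and Cybb to 106 to 360 and 215 to 959. Of the neutrophil markers, Mmp9 was at 0 in old replicates 1 and 3, and of the monocyte markers, Adgre1 was at 0 in the young libraries and in old replicate 2. In bulk libraries fewer cells of a type and less RNA per cell cannot be told apart.

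**Figure D3:**
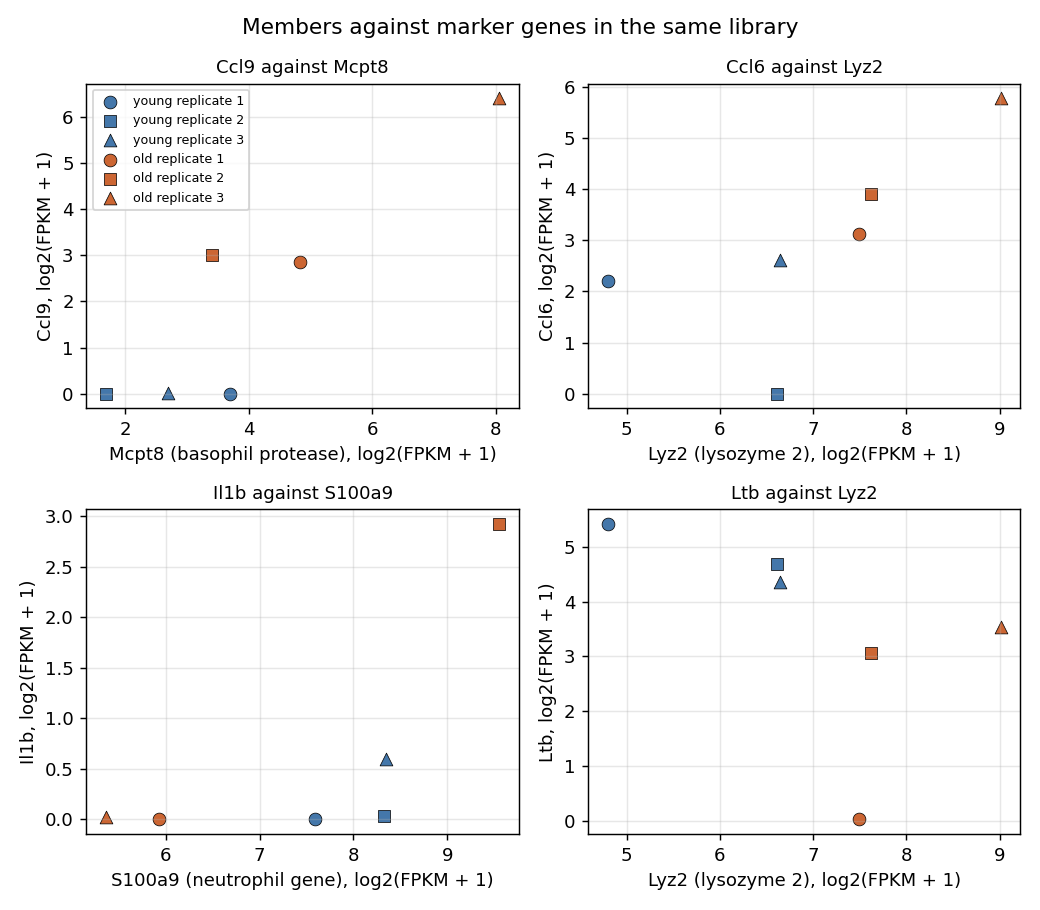
Log2(FPKM + 1) of Ccl9, Ccl6, Il1b and Ltb against that of a marker gene in the same library, 1 point per library. Ccl9 is at or near 0 in young libraries whose Mcpt8, at 2.23 to 12.0 FPKM, spans the 9.55 FPKM of old replicate 2, and Il1b exceeds 1 FPKM only in the library with the highest S100a9.

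As a description over the 6 libraries, the pair of tested members most alike in log2(FPKM + 1) was Tnf and Il1b, with Pearson r = 0.92, followed by Ccl6 and Ccl9 with r = 0.88. Among all other tested genes, the 3 most like Ccl9 were Ptk2 (r = 0.999), Il17rb (r = 0.998) and Pgam5 (r = 0.996). Ptk2, a focal adhesion kinase gene, was listed at 0 in all 3 young libraries and was at 1.05, 1.30 and 3.89 FPKM in old ones. Those most like Tnf were Trappc2, Fkbp7 and Gm2178, and those most like Ltb were Cyb561a3 (r = 0.986), Mapkapk2 (r = 0.982) and Ccnc (r = 0.981). Cyb561a3, a cytochrome gene of endolysosomes, was at 42.5, 43.8 and 25.95 FPKM in the young and 0.350, 7.61 and 18.3 FPKM in the old libraries. Ccl3 was most like Chchd5, Pcp2 and Npm3, and Ccl4 most like Ccdc114, Itgb1bp2 and Smyd2. Those most like Il1b were Hspa13, Tekt2 and Lsr, for Ccl6 Ppp3r1, Mlst8 and Mtmr9, and for Il18 Pygm, Zfp52 and Lmntd2, and for Ccl5 Gip, Gnrh1 and Gatsl3. A correlation of at least 0.99 was reached with Ccl3 by 35 other tested genes and with Ccl9 by 10, and with Ccl5, present in 1 library, by 82. The points share library depth and the number of genes above 0.

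RefSeq windows of 300 bases, from 250 before to 50 after the start site, were found for 8 of the 10 genes, and motifs were searched on both strands. The NF-kB consensus was found in 3 of the 8, Il6, Ccl9 and Ltb, and in 8.46% of all 32851 windows. The TATA box letters were found in 4 of the 8, Tnf, Il1b, Ccl9 and Il18, against 13.6% of all windows, and the PU.1 core GAGGAA in 3, Tnf, Ccl3 and Ltb, against 28.3%. Of the 28 pairs of windows, Ccl6 and Ccl9 had the best local alignment, with 58 identical bases in 74 columns (78.4%), beginning 59 bases before the Ccl6 start and 18 before that of Ccl9 and so running beyond the printed stretches. A match is a description of letters and not a site.

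The receptors of these mediators ranged from genes listed at 0 to Il6st at 42.2 FPKM. All 13 receptor genes were in the table, of which 7 were tested and 0 were called, 4 had a log2 change above 0 and 3 below, and their median was 0.19. Without old replicate 3 that median was -0.52. Tnfrsf1a, the main TNF receptor gene, was listed at 0 in all 3 young libraries and was at 3.71, 3.77 and 14.8 FPKM in old ones (log2 change 2.83 ± 0.86 (SE), limma adjusted p = 0.736). Tnfrsf1b, the TNF receptor of lymphocytes and myeloid cells, was at 6.60, 0.339 and 0 against 2.60, 7.59 and 14.4. Il6ra, the IL-6 binding receptor chain, was at 0.842, 5.61 and 3.38 against 4.46, 8.07 and 8.70. Il6st, the signalling chain shared by IL-6 type receptors, was at 31.3, 42.2 and 21.1 FPKM for young replicates 1 to 3 and 22.3, 19.5 and 38.8 for old replicates 1 to 3. Ccr1 was at 0 in every young library and reached 0.817 FPKM in old replicate 3.

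Genes that release or restrain the cytokines went both ways. Of 10 genes listed 9 were in the table and 6 were tested, 0 were called, and 3 changes were above 0 and 3 below, with a median of 0.08, or -0.34 after quantile normalization. Casp1, which cuts the IL-1 family precursors, was at 51.7, 31.1 and 1.30 FPKM in the young and 46.4, 48.6 and 39.5 FPKM in the old libraries. Pycard, the inflammasome adaptor gene, was at 10.5, 16.2 and 23.5 against 4.35, 8.74 and 5.44, with no overlap (log2 change -1.29 ± 0.62 (SE), limma adjusted p = 0.839). Casp4, the caspase that senses cytosolic lipopolysaccharide, was at 16.0, 25.9 and 48.0 against 2.64, 16.5 and 12.5, and Gsdmd, the pore protein gene, was at 50.3, 12.5 and 0.0525 against 11.2, 26.3 and 22.5. Nlrp3, the sensor, was at 0 in every young library and old replicate 1 and was at 0.294 and 3.15 FPKM in old replicates 2 and 3.

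Targets and subunits of the NF-kB pathway, which TNF and lymphotoxin engage, lay lower in old libraries more often than higher, while Tnf itself was listed above 0 in old libraries alone. Of 16 genes 15 were tested and 0 were called, with 2 changes above 0 and 13 below, and a median of -0.46, beside 6552 above and 4135 below among all genes tested. At an unadjusted limma p under 0.05, 2 of the 15 were lower and 0 higher, against 1.25% and 4.66% of all genes tested. Every old library was lower for 4 and higher for 1, Ier3, against 3.42% and 8.78% of all genes tested. Bcl3, an IkB family coregulator, was at 13.7, 16.4 and 64.7 FPKM for young replicates 1 to 3 and 8.23, 5.01 and 2.38 for old replicates 1 to 3 (log2 change -2.16 ± 0.74 (SE), limma adjusted p = 0.736). Tnfaip3, the feedback enzyme A20, was at 31.2, 25.2 and 66.3 against 13.9, 12.7 and 19.9 (log2 change -1.24 ± 0.50 (SE), limma adjusted p = 0.831). Nfkb2, the subunit processed downstream of the lymphotoxin receptor, was at 137, 54.3 and 206 against 50.8, 62.9 and 60.3, and Nfkbie at 46.1, 60.5 and 76.9 against 28.9, 39.9 and 41.5. Young replicate 3 had the highest value of 10 of the 16 genes, and without it the median was -0.48. Over the alternatives the median ranged from -0.82 without young replicate 1 to -0.31 without old replicate 2.

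Of 22 further chemokine genes 8 were in the table and Cxcl10, an interferon-induced chemokine gene, was the 1 tested, at 0, 0.0338 and 0 FPKM in the young and 9.05, 2.30 and 0 FPKM in the old libraries. The summed level of the 8 was 0.0173 to 3.47 FPKM in young and 6.66 to 12.3 in old libraries, and this sum was not tested. Its largest term differed among the old libraries. That term was Cxcl10 at 9.05 FPKM in old replicate 1, Cxcl16 at 2.84 in old replicate 2 and Ccl25 at 4.24 in old replicate 3. Of 28 further cytokine and growth factor genes 19 were in the table and 12 were tested, 0 were called, 10 changes were above 0 and 2 below, and the median was 0.99, or 0.33 without old replicate 3 and 0.10 with the myeloid level as a covariate. Tnfsf13b, the B cell survival factor BAFF, was listed at 0 in all 3 young libraries and old replicate 3 and was at 5.22 and 1.59 FPKM in old replicates 1 and 2. Among the abundant ones, Mif, a macrophage migration inhibitory cytokine gene, was at 31.1, 88.6 and 1.63 against 22.1, 47.7 and 129, and Il16 ranged from 16.1 to 35.4 FPKM over the 6 libraries. Ebi3, a subunit of IL-27 and IL-35, went the other way, at 27.0, 93.1 and 0.0673 against 3.43, 2.31 and 1.65. Tnfsf14, a ligand of the lymphotoxin beta receptor, was at 14.4 FPKM in old replicate 3 and at most 0.460 elsewhere, and Tnfsf10, the death ligand TRAIL, was at 0.283, 6.25 and 4.53 against 6.92, 11.9 and 5.05.

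**Figure D4:**
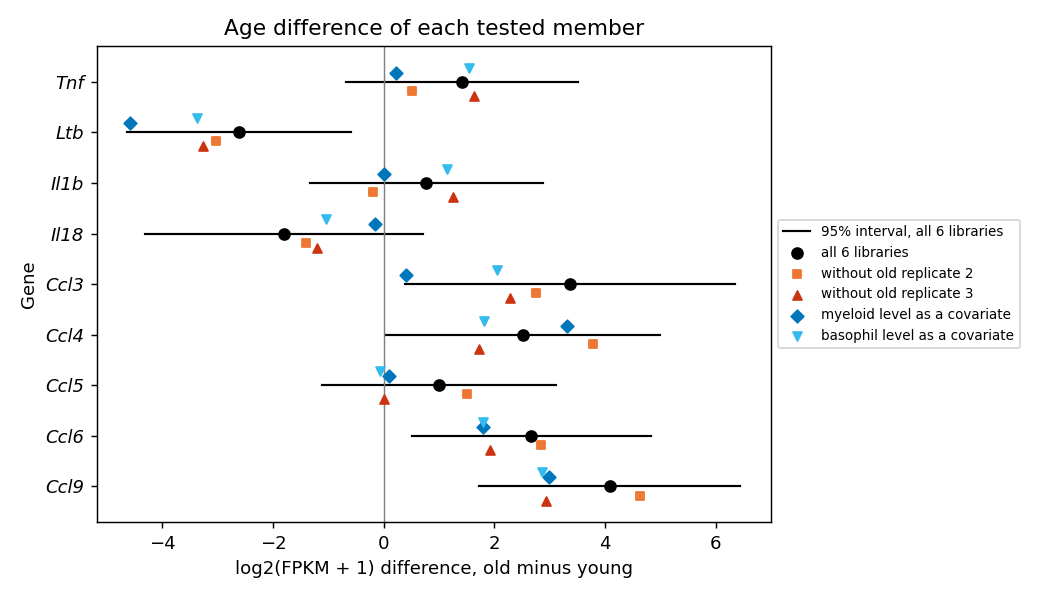
Log2(FPKM + 1) difference, old minus young, of the 9 tested genes, with 95% intervals from limma, and the same difference without old replicate 2 or 3 and with the myeloid or basophil level as a covariate. Ccl9 stays at 2.85 or more and Ltb at -2.61 or less in the settings drawn, while Tnf, Il1b, Ccl3 and Ccl5 lie between -0.0021 and 0.40 with the myeloid level as a covariate. Without old replicate 1, a setting not drawn, the change was -1.51 for Ltb and 4.70 for Ccl9.

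The members differed in how their change moved when the myeloid marker level was a covariate. With that level as a covariate, limma's log2 change went from 3.37 to 0.40 for Ccl3, from 1.42 to 0.23 for Tnf, from 1.00 to 0.10 for Ccl5 and from -1.80 to -0.15 for Il18. It was 2.99 for Ccl9, 1.80 for Ccl6 and 3.31 for Ccl4, and was -4.58 for Ltb. The covariate fit has 6 libraries and 3 coefficients, and limma adjusted p was between 0.791 and 1.00 for all 9 genes. The myeloid level was 2.53 to 2.84 in young libraries, 2.60 in old replicate 1, and 4.41 and 4.44 in old replicates 2 and 3. It nearly marks those 2 libraries and cannot be told apart from their other traits. The age term thus rests mostly on old replicate 1. Without those 2, the changes were -0.0283 for Ccl3, 0.03 for Tnf, 0 for Ccl5 and 0.20 for Il18. They were 1.53 for Ccl6, 2.85 for Ccl9, 3.46 for Ccl4 and -4.79 for Ltb. No fit with an NK cell level was made.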

How the data were processed

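Each of the 6 paired-end libraries started with 5 ng of RNA and a strand-keeping kit for total RNA, per the labels' protocols. FPKM values were deposited by the authors, 1 column per library. Reads were split by sample with bcl2fastq 2.17, per the labels' protocols, and STAR, DESeq2 and the builds GRCm38 and mm10 are named, without roles, in the submitters' processing notes. The counter, the annotation and the use of strand are not given in the sources used here, so reads of near-identical or overlapping genes may be split or merged.

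Genes with a mean of at least 1 FPKM were tested with limma 3.58.1 (R 4.3.3, mean-variance trend, two-sided) on log2(FPKM + 1), with Benjamini-Hochberg adjustment over the 10687 genes tested. Changes on this scale understate those of low genes. The script was tested on simulated data. Gene positions and merged exon lengths came from GENCODE M21 by gene ID, which matched all 10 genes. Approximate fragments are FPKM times that length times a depth read from the steps of low values. They cover counting error only. Alternatives were other pseudocounts, filters, scalings, weights and moderation, a replicate block, myeloid and basophil covariates and leaving out libraries. Python 3.11.15, numpy 2.4.6, pandas 2.3.3 and Biopython 1.88 were used.

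The members and the 15 gene lists were chosen with earlier results of these data known. The genes named are the members, up to 4 of smallest p in each pathway list, fixed markers with the highest of each marker list, and the 3 genes most like each tested member. Other genes of these lists, Taf15 and Wfdc17 were named after their values were seen. Of the receptor list, 1 gene is not reported here.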

Additional observations from a re-analysis of the deposited data

How the results depend on the processing

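Limma called 0 members in all 6-library fits and without any single library. It called 1 gene of 10687, not a member, after quantile normalization, with array weights and with robust moderation, and 0 otherwise. Without old replicates 2 and 3 together, an alternative chosen after seeing the data that leaves 1 old library and takes the spread from the young ones alone, limma called 277 genes and 2 members, Ccl4 and Ccl9. In that fit 3 members changed sign, with log2 changes of -0.21 for Il1b, -0.0283 for Ccl3 and 0.20 for Il18. Il1b was -0.0021 with the myeloid covariate and ranged from -0.20 to 1.27 without single libraries, lowest without old replicate 2. Ccl5 was -0.0589 with the basophil covariate, also chosen after seeing the data. Tnf, Ccl4, Ccl6, Ccl9 and Ltb kept their sign in every alternative that gave a value, and a mean of at least 5 FPKM left Tnf, Il1b, Ccl4 and Ccl5 out. Over the alternatives the limma adjusted p of Ccl9 ranged from 0.0222 to 1.00 and that of Ltb from 0.176 to 0.943. With pseudocounts of 0.1 and 5 the Ccl9 change was 7.22 and 2.19. With the replicate block the Ccl9 change was 4.08 with a limma adjusted p = 0.811, and 0 genes were called. Same-numbered samples had correlations of deviations of -0.0344, 0.0203 and -0.00412, and differently numbered ones of -0.0425 to 0.0495. These values showed no pairing by number and cannot exclude it. The precision is limited by 3 libraries per group and by values that rest on about 1 to 2 fragments.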
